A study of Saccharomyces cerevisiae with 12 samples.

Results

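The Hsp70 and Hsp110 chaperone genes of Saccharomyces cerevisiae were followed across 4 strains. The 10 genes, chosen by their target names among the 6713 targets of each library, were the cytosolic genes SSA1 (YAL005C), SSA2 (YLL024C), SSA3 (YBL075C) and SSA4 (YER103W), the ribosome-associated genes SSB1 (YDL229W), SSB2 (YNL209W) and SSZ1 (YHR064C), the Hsp110 genes SSE1 (YPL106C) and SSE2 (YBR169C), and KAR2 (YJL034W) of the endoplasmic reticulum. All 10 passed the low-count filter, which kept 6327 targets.

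RNA was sequenced from cultures in synthetic defined medium, taken at an OD600 of 0.4, with 3 libraries of each strain. The strains were wild type S288c (libraries 1, 9 and 17), RPD3 S418A (3, 11 and 19), SWI3 S237A (2, 10 and 18) and RPD3 KO (4, 12 and 20), and all mutants are labelled as S288c. Rpd3 is a histone deacetylase and Swi3 a subunit of the SWI/SNF chromatin remodelling complex, and the point mutations put alanine in place of serine at the residue each label names. Nothing in the labels ties the 3 libraries to separate cultures or tells how the mutants were made and whether each is 1 clone, so p-values cover only the spread among these libraries. A protocol text shared by the samples mentions 20 mM caffeine for 4 h in part of them, while all 12 libraries carry the medium alone as their growth condition.

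The libraries held 18292555 to 26952031 estimated counts. RPD3 had 0 counts in the 3 RPD3 KO libraries and 103.2 to 111.9 CPM in wild type, and SWI3 was read in every library. A point mutation cannot be checked from transcript levels. The alpha pheromone gene MF(ALPHA)1 stood at 931 ± 56.7 CPM (SD, n = 3) in wild type against 0.202 ± 0.0591 for the a pheromone gene MFA1. Of 4 alpha-specific genes, 4 were lower in RPD3 KO than in wild type, beside 38% of all tested targets called lower there by edgeR's quasi-likelihood test at an adjusted p under 0.05. In SWI3 S237A 3 were lower and 1 higher, beside 31.3% and 28.7% of all targets. Of the 3 a-specific genes tested, 2 were higher and 1 lower in RPD3 KO, where 31.9% of all targets were higher, and 1 was higher in SWI3 S237A. All 3 were read at low levels. Mean CPM in wild type and RPD3 KO were 0.202 and 0.533 for MFA1, 4.25 and 5.87 for STE2, and 4.47 and 1.25 for BAR1. In RPD3 S418A 0 of the alpha-specific and a-specific genes were called, beside 2.02% of all targets. The part of these genes in the results was not tested. CPM are counts scaled to a common library size, here after TMM scaling, and serve to compare 1 gene between libraries, while TPM, which also divide by transcript length, serve to compare genes.

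Hsp70 proteins bind short exposed stretches of unfolded or newly made proteins and let go of them in a cycle driven by ATP. J-domain proteins speed the ATP hydrolysis that closes the chaperone on its client, and nucleotide exchange factors, among them the Hsp110 proteins, open it again. Yeast keeps constitutive and inducible copies of the same chaperone: SSA2 is made in unstressed cells, SSA1 is made in unstressed cells and raised further by heat, SSA3 and SSA4 are known as stress-inducible, and SSE1 and SSE2 form a similar constitutive and inducible pair. The Ssb proteins work on chains leaving the ribosome and follow the genes of protein synthesis, and Kar2, the BiP of yeast, serves import and folding in the endoplasmic reticulum.

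How far reads can tell the paralogs apart depends on their sequences, so the first 60 coding bases of the most alike pairs are shown, from the RefSeq R64 genome, with capitals at the bases that differ within a pair (SSA1 at chrI:141372-141431 on the minus strand, SSA2 at chrXII:97426-97485 on the minus strand, SSB1 at chrIV:44065-44124 on the plus strand and SSB2 at chrXIV:252059-252118 on the plus strand).
SSA1: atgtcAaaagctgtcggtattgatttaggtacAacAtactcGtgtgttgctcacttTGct
SSA2: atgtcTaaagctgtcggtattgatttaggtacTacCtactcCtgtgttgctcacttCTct
SSB1: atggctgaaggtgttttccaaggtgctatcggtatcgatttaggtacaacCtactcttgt
SSB2: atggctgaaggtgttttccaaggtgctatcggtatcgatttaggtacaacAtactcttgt
SSA1 and SSA2 differed at 6 of these 60 bases and SSB1 and SSB2 at 1. Over the whole coding sequences SSA1 and SSA2 were 96.4% identical and SSB1 and SSB2 97.4%, with alignment gaps counted as differences. Of the 31-base words in SSA1, 63.6% also occurred in SSA2, and 57.8% of those in SSB1 occurred in SSB2, so that the split of reads within each of these pairs rests on the remaining words. SSA3 and SSA4 were 76.6% identical, SSE1 and SSE2 71.8%, and these 4 genes, SSZ1 and KAR2 shared no 31-base word with another of the 6008 targets found in the reference. The words of the other 705 targets were not compared. All 10 genes have 1 uninterrupted coding segment in the annotation, and no annotated gene overlaps any of them. The coding sequences lie, by R64 position and strand, with SSA1 at chrI:139503-141431 (minus), SSA2 at chrXII:95566-97485 (minus), SSA3 at chrII:84499-86448 (minus), SSA4 at chrV:364589-366517 (plus), SSB1 at chrIV:44065-45906 (plus), SSB2 at chrXIV:252059-253900 (plus), SSZ1 at chrVIII:225525-227141 (minus), SSE1 at chrXVI:350194-352275 (minus), SSE2 at chrII:573915-575996 (minus) and KAR2 at chrX:381327-383375 (plus).

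The upstream sequences of 5 genes with different behaviour are shown next, 200 bases each, from 300 to 101 bases before the first coding base (SSA4 at chrV:364289-364488 on the plus strand, SSA3 at chrII:86549-86748 on the minus strand, SSA2 at chrXII:97586-97785 on the minus strand, KAR2 at chrX:381027-381226 on the plus strand and SSB1 at chrIV:43765-43964 on the plus strand). Capitals mark paired units of the heat shock element, the site of the heat shock factor Hsf1, written GAANNTTC or TTCNNGAA, both of which read the same on either strand.
SSA4: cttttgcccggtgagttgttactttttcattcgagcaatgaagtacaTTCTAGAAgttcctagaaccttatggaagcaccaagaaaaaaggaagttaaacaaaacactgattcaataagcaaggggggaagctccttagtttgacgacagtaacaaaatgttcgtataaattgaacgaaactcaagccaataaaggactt
SSA3: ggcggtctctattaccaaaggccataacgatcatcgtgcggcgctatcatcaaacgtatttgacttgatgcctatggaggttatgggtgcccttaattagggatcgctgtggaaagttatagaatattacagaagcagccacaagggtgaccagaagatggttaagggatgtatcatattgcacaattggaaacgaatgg
SSA2: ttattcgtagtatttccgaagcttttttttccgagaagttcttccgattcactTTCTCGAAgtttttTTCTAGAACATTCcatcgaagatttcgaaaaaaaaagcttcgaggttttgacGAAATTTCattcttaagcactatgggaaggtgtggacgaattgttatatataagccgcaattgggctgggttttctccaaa
KAR2: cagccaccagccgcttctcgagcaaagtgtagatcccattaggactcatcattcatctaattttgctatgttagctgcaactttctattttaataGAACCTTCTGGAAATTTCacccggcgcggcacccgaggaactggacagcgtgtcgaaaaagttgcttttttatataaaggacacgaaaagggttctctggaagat
SSB1: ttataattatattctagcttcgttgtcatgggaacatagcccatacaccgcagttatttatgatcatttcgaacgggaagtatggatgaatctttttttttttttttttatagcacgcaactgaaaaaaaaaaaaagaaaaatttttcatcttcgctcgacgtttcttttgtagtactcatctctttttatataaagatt
The search marked 1 such pair in the SSA4 window and more in those of SSA2 and KAR2, and none in those of SSA3 and SSB1.

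In wild type each constitutive copy stood above its inducible paralogs. SSA2 was highest at 3508 ± 136 TPM (SD, n = 3) and SSA1 second at 2701 ± 367, with no overlap between their libraries. SSB1 (1033 ± 214), SSB2 (1014 ± 155) and KAR2 (1008 ± 87.2 TPM) followed and did not differ beyond their spread. SSA4 (718 ± 101) and SSE1 (707 ± 77.5 TPM) were next and also lay within each other's spread. SSZ1 (286 ± 64.2) and SSE2 (248 ± 39.0 TPM) again overlapped, and SSA3 was lowest at 26.8 ± 2.56 TPM. The inducible SSA4 thus made up 10.3% ± 0.995 (SD, n = 3) of the TPM of the 4 SSA genes, and SSA3 0.385% ± 0.00889.

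SSA1, SSA2, SSA4, SSE2 and KAR2 were 2.99-fold to 56.8-fold lower in RPD3 KO and SWI3 S237A than in wild type, and SSB1, SSB2 and SSZ1 were higher. In RPD3 KO, 3 genes were higher and 7 lower by edgeR's quasi-likelihood test at an adjusted p under 0.05, beside 69.9% of all tested targets called in that comparison (31.9% higher and 38% lower). In SWI3 S237A, 3 were higher, 6 lower and SSE1 did not pass, beside 60% of all targets (28.7% higher and 31.3% lower). The median log2 change over the 10 genes was -1.53 in RPD3 KO and -1.34 in SWI3 S237A, beside -0.06 and -0.02 over all tested targets. In RPD3 S418A none of the 10 passed, beside 2.02% of all targets (0.822% higher and 1.2% lower). The 3 comparisons share the wild type libraries. The libraries of RPD3 KO and of SWI3 S237A did not overlap with those of wild type for any of the 10 genes in TMM-scaled CPM. In TPM, SSA3 in RPD3 KO and SSE1 in SWI3 S237A did. The share of all tested targets with no such overlap was not computed, so the lack of overlap is not shown to be particular to these genes.

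**Figure D1:**
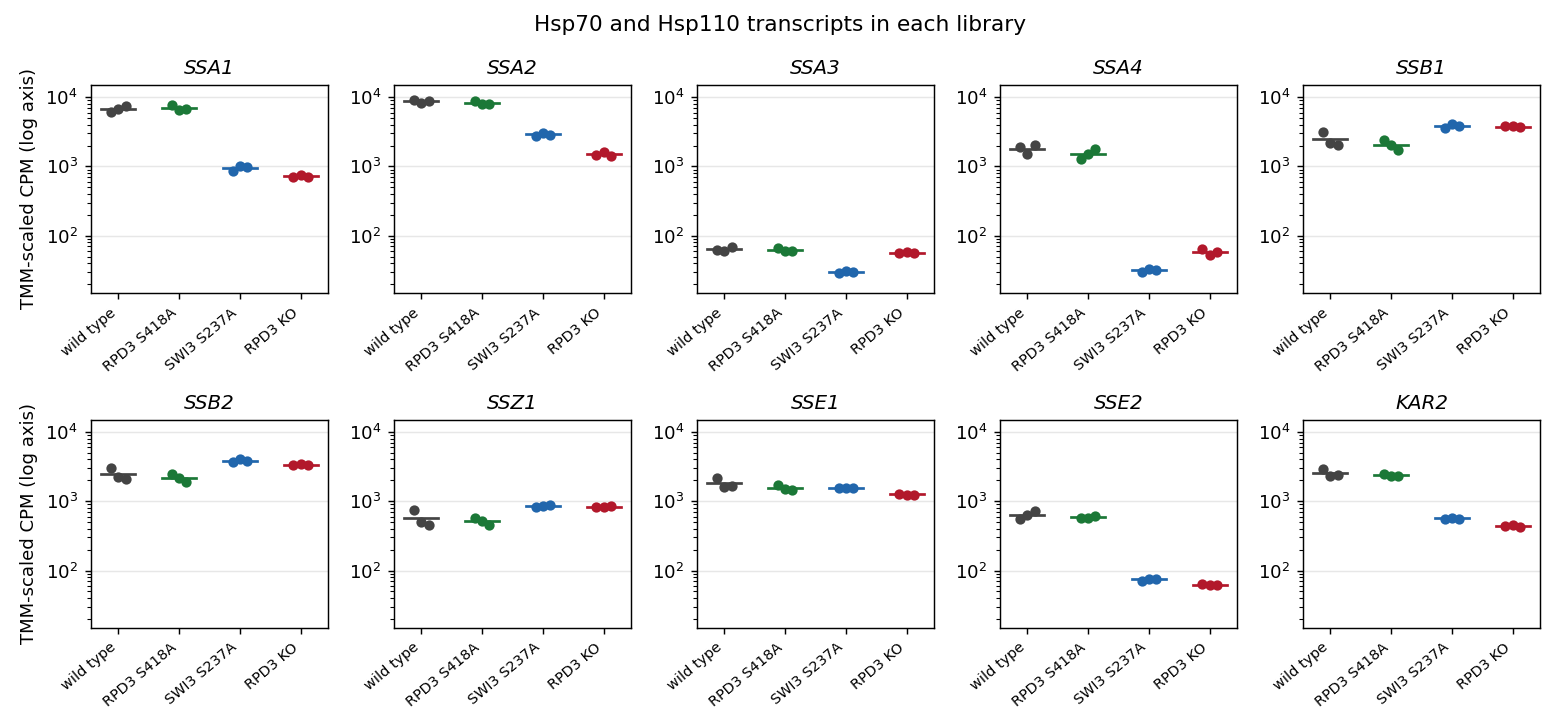
TMM-scaled CPM (log axis) of each of the 10 genes in every library; points are libraries, horizontal lines are means of 3 libraries. Wild type and RPD3 S418A overlap for all 10 genes, and SSA4 spans the widest range, from 1519 to 2017 CPM in wild type to 29.9 to 33.5 in SWI3 S237A.

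SSA4, the main heat-inducible cytosolic Hsp70, showed the largest fall of the 10. Its level was 1900, 1519 and 2017 CPM in wild type libraries 1, 9 and 17, 64.5, 53.4 and 57.9 in RPD3 KO libraries 4, 12 and 20, and 29.9, 33.5 and 32.2 in SWI3 S237A libraries 2, 10 and 18. The 3 strains did not overlap. The gene was 30.9-fold lower in RPD3 KO (log2 -4.95 ± 0.15 SE, edgeR adjusted p = 4.03e-11) and 56.8-fold lower in SWI3 S237A (log2 -5.83 ± 0.16, adjusted p = 2.05e-11). Between the mutants, SWI3 S237A lay below RPD3 KO (log2 -0.88 ± 0.13, adjusted p = 8.52e-05).

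SSA3, the other inducible cytosolic gene, moved differently. It had 63.3, 59.7 and 69.5 CPM in wild type, 55.9, 59.0 and 56.4 in RPD3 KO, and 29.1, 30.7 and 30.4 in SWI3 S237A. The SWI3 S237A libraries stood apart from both other strains, while RPD3 KO lay just below wild type. SSA3 was 2.13-fold lower in SWI3 S237A (log2 -1.09 ± 0.07, edgeR adjusted p = 8.39e-08). In RPD3 KO it was called only narrowly (log2 -0.17 ± 0.07, adjusted p = 0.0497); the call ended with RLE size factors (adjusted p = 0.156), in DESeq2 (adjusted p = 0.195), in a fit of the 6 libraries alone (adjusted p = 0.183), and without wild type library 1 or 17 or any 1 of the RPD3 KO libraries (adjusted p = 0.0560 to 0.216). With total counts as the scale its sign turned (log2 0.01), and in TPM the strains overlapped, at 26.8 ± 2.56 in wild type and 27.4 ± 0.0108 in RPD3 KO (SD, n = 3).

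SSA2, the constitutive member, remained the most abundant SSA transcript but fell too. It was read at 9171, 8139 and 8753 CPM in wild type, 1460, 1604 and 1405 in RPD3 KO, and 2771, 3085 and 2848 in SWI3 S237A. No libraries of these 3 strains overlapped. The fall was 5.83-fold in RPD3 KO (log2 -2.54 ± 0.08, edgeR adjusted p = 7.19e-11) and 2.99-fold in SWI3 S237A (log2 -1.58 ± 0.08, adjusted p = 7.1e-09), and SWI3 S237A lay above RPD3 KO (log2 0.96 ± 0.08, adjusted p = 5.04e-07).

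SSA1, made in unstressed cells and raised by heat, fell further than SSA2. Its levels were 6133, 6748 and 7469 CPM in wild type, 699, 758 and 715 in RPD3 KO, and 848, 1023 and 980 in SWI3 S237A. The mutants did not overlap with wild type or with each other. SSA1 was 9.37-fold lower in RPD3 KO (log2 -3.23 ± 0.10, edgeR adjusted p = 5.79e-11) and 7.14-fold lower in SWI3 S237A (log2 -2.84 ± 0.10, adjusted p = 2.4e-10). With SSA1 and SSA2 counted as 1 gene, which removes the split of their shared reads, the log2 change was -2.81 ± 0.08 in RPD3 KO and -2.01 ± 0.08 in SWI3 S237A (edgeR adjusted p = 3.44e-11 and 6.96e-10).

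**Figure D2:**
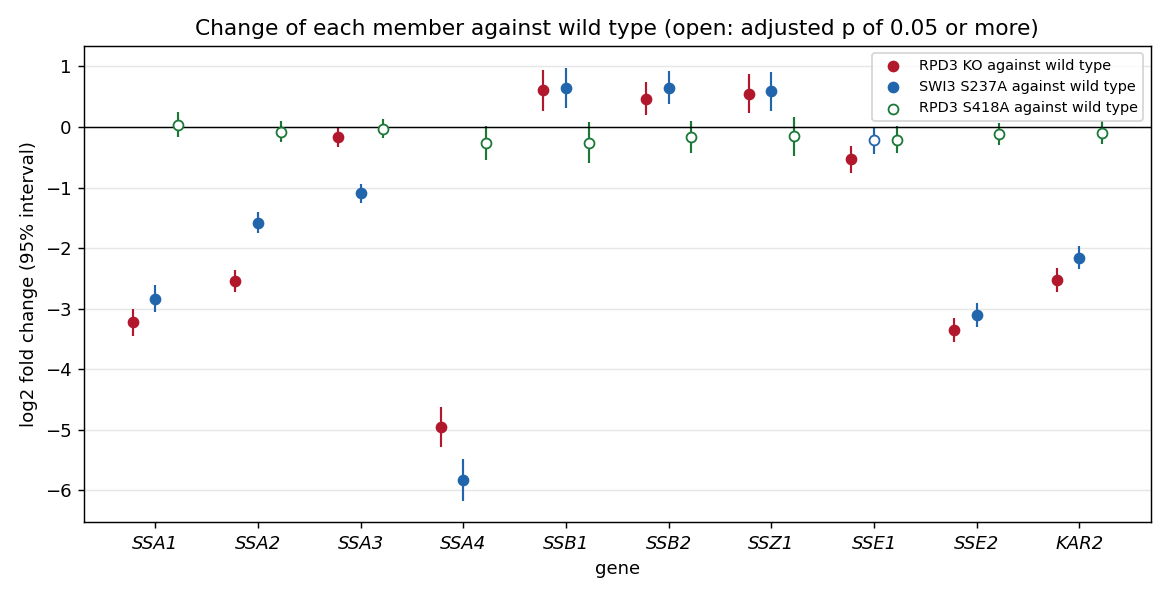
Log2 fold change of each gene against wild type with its 95% interval in the 3 mutants (filled, adjusted p under 0.05; open, not). RPD3 KO and SWI3 S237A range from -4.95 and -5.83 for SSA4 to 0.61 and 0.65 for the SSB genes, while all RPD3 S418A points are open and near 0.

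The ratio of inducible to constitutive paralog was followed within each library, on a log2 scale of TPM with 0.1 added. SSA4 over SSA2 averaged -2.30 ± 0.15 (SD, n = 3) in wild type, -4.68 ± 0.21 in RPD3 KO and -6.53 ± 0.03 in SWI3 S237A, which corresponds to 20.4%, 3.91% and 1.07% of SSA2. Each mutant library lay below every wild type library. SSE2 over SSE1 averaged -1.51 ± 0.37, -4.33 ± 0.00155 and -4.40 ± 0.06, or 35.7%, 4.95% and 4.74% of SSE1. SSA3 over SSA2 went the other way, at -7.03 ± 0.10 in wild type, -4.64 ± 0.06 in RPD3 KO and -6.53 ± 0.05 in SWI3 S237A, so the inducible class did not move as 1 block relative to SSA2. SSA1 over SSA2 averaged -0.39 ± 0.19, -1.06 ± 0.06 and -1.64 ± 0.09. The difference from wild type for these 4 ratios had p = 0.1 in an exact two-sided permutation test in both mutants (adjusted over 6 ratios, 0.1 and 0.12), which is the smallest p that 3 against 3 libraries allow among 20 assignments. In RPD3 S418A the 6 ratios, which also include SSA3 over SSA4 and SSB2 over SSB1, differed from wild type by -0.18 to 0.24 (exact p = 0.2 to 0.9).

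SSA3 and SSA4, which differed widely in wild type, lay within each other's range in both mutants. Per length, SSA4 stood at 718 ± 101 TPM in wild type against 26.8 ± 2.56 for SSA3. In RPD3 KO the values were 26.8 ± 3.28 for SSA4 and 27.4 ± 0.0108 for SSA3, and in SWI3 S237A 13.9 ± 0.431 and 13.9 ± 0.0475 TPM (SD, n = 3). The ratio of SSA3 to SSA4 was 3.75% in wild type, 103.4% in RPD3 KO and 99.9% in SWI3 S237A (exact two-sided permutation p = 0.1 for each mutant against wild type, and 0.8 between the mutants). Of the TPM of the 4 SSA genes, SSA4 made up 2.51% in RPD3 KO and 0.801% in SWI3 S237A, and SSA3 2.57% and 0.800%.

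The 3 ribosome-associated genes moved together and upward. SSB1, a ribosome-bound Hsp70, had 3183, 2190 and 2025 CPM in wild type, 3788, 3790 and 3674 in RPD3 KO, and 3637, 4053 and 3868 in SWI3 S237A. Wild type library 1 was the highest of its strain and still below every library of both mutants. SSB1 was 1.52-fold higher in RPD3 KO (log2 0.61 ± 0.15, edgeR adjusted p = 0.00385) and 1.56-fold higher in SWI3 S237A (log2 0.64 ± 0.15, adjusted p = 0.00333). Without wild type library 1 these changes were 0.83 and 0.87 on the log2 scale.

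Its near-identical partner SSB2 was read at 2998, 2211 and 2106 CPM in wild type, 3364, 3435 and 3333 in RPD3 KO, and 3637, 4029 and 3796 in SWI3 S237A. Again the groups did not overlap. SSB2 rose by a log2 of 0.47 ± 0.12 in RPD3 KO and 0.65 ± 0.12 in SWI3 S237A (edgeR adjusted p = 0.00457 and 0.000684). Counted as 1 gene, SSB1 and SSB2 rose by 0.54 ± 0.14 and 0.65 ± 0.14 (adjusted p = 0.00375 and 0.00149). The SSB2 to SSB1 ratio lay between 89.1% and 105.5% in the 4 strain means.

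SSZ1, an Hsp70 that forms the ribosome-associated complex with the J-domain protein Zuo1, had 746, 500.6 and 456 CPM in wild type, 822, 826 and 843 in RPD3 KO, and 837, 860.3 and 868 in SWI3 S237A. Both mutants lay above all wild type libraries. The change was 0.55 ± 0.15 in RPD3 KO and 0.59 ± 0.15 in SWI3 S237A on the log2 scale (edgeR adjusted p = 0.0051 and 0.00406). For SSB1, SSB2 and SSZ1 no difference between the 2 mutants passed the test, with 95% intervals of the log2 difference from -0.30 to 0.37, -0.09 to 0.45 and -0.28 to 0.36. Targets with no entry in the annotation used here, YDL228C and YHR063W-A, are neighbours of SSB1 and SSZ1 in the systematic numbering, and no source used here states whether counting used strand. YDL228C held 15.3% to 20.2% of its sum with SSB1, YHR063W-A 4.88% to 8.32% of its sum with SSZ1, and testing the sums changed no call, an addition made after the values were seen.

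Summed per length, the balance between the cytosolic and the ribosome-associated Hsp70 transcripts turned over. The 4 SSA genes added up to 6953 ± 505 TPM (SD, n = 3) in wild type, 6551 ± 425 in RPD3 S418A, 1734 ± 63.7 in SWI3 S237A and 1069 ± 27.8 in RPD3 KO. SSB1 and SSB2 together had 2047 ± 368, 1742 ± 275, 3554 ± 93.7 and 3427 ± 82.1 TPM in the same order. The SSA sum was thus 3.49 ± 0.782 times the SSB sum in wild type and 3.805 ± 0.472 times in RPD3 S418A, and 0.488 ± 0.00506 and 0.312 ± 0.0127 times in SWI3 S237A and RPD3 KO. This ratio was chosen after the values were seen and is given as a description.

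**Figure D3:**
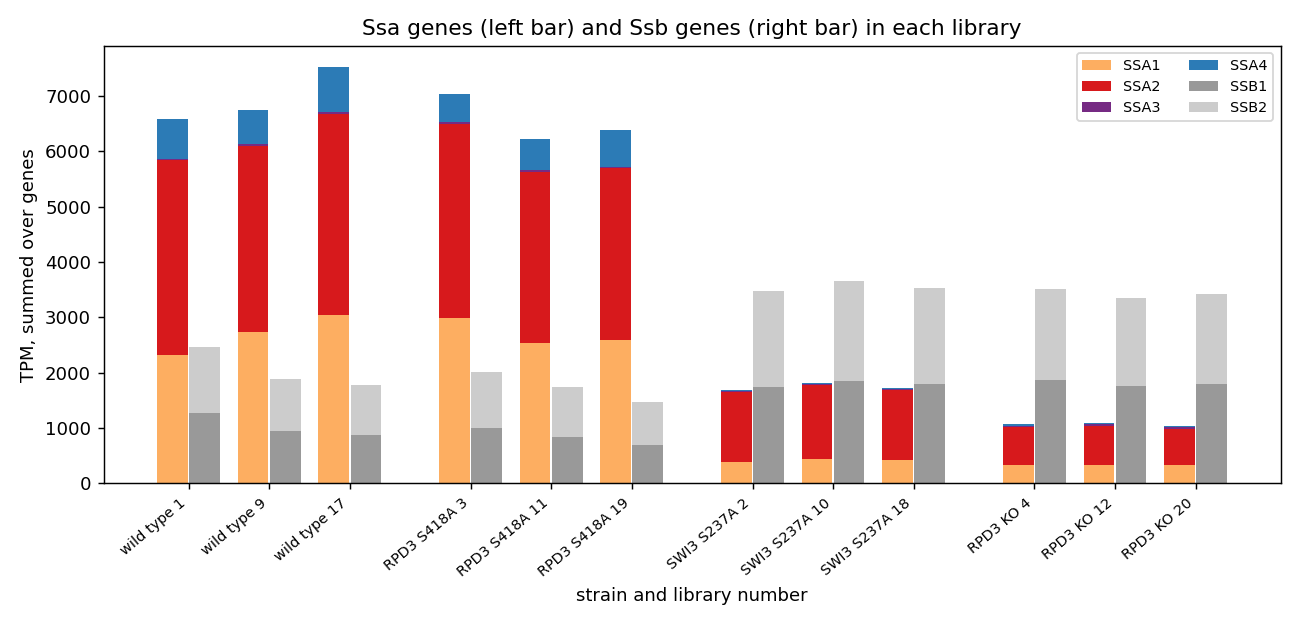
TPM of the SSA genes (left bar) and SSB genes (right bar), stacked, in each of the 12 libraries. The SSA bar is the taller in every wild type and RPD3 S418A library, and the SSB bar in every SWI3 S237A and RPD3 KO library.

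The Hsp110 pair moved unequally. SSE2, the inducible copy, had 560.1, 634 and 715 CPM in wild type, 63.9, 60.8 and 61.7 in RPD3 KO, and 71.0, 76.5 and 75.2 in SWI3 S237A. The mutants were far below wild type. It was 10.2-fold lower in RPD3 KO (log2 -3.36 ± 0.09, edgeR adjusted p = 1.85e-11) and 8.57-fold lower in SWI3 S237A (log2 -3.10 ± 0.09, adjusted p = 4.15e-11).

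SSE1, the main exchange factor for the cytosolic Hsp70s, stood at 2133, 1607 and 1684 CPM in wild type, 1286, 1225 and 1246 in RPD3 KO, and 1559, 1571 and 1526 in SWI3 S237A. In these CPM every mutant library lay below every wild type library, by little in SWI3 S237A. In TPM the 3 SWI3 S237A libraries, at 692, 662 and 655, lay above wild type library 9 at 648. The fall in RPD3 KO was 1.44-fold (log2 -0.53 ± 0.10, edgeR adjusted p = 0.000511). In SWI3 S237A the log2 difference was -0.22 ± 0.10 with a 95% interval from -0.44 to 0.00 and did not pass (adjusted p = 0.08); without wild type library 9 it did (log2 -0.30, adjusted p = 0.0332).

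KAR2, the Hsp70 of the endoplasmic reticulum, had 2885, 2283 and 2363 CPM in wild type, 433, 446 and 427 in RPD3 KO, and 558.5, 572.5 and 558.6 in SWI3 S237A. None of these groups overlapped. The fall was 5.76-fold in RPD3 KO (log2 -2.53 ± 0.09, edgeR adjusted p = 1.37e-10) and 4.46-fold in SWI3 S237A (log2 -2.16 ± 0.09, adjusted p = 8.18e-10). In bulk cultures fewer cells with a transcript and less of it per cell cannot be told apart.

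The order of the family by TPM changed with these moves. In both RPD3 KO and SWI3 S237A the order began with SSB1, SSB2, SSA2, SSE1, SSZ1, SSA1 and KAR2, and ended with SSE2 and the pair SSA3 and SSA4. SSB1 and SSB2 lay within each other's spread in SWI3 S237A (1794 ± 49.3 and 1759 ± 45.5 TPM) but not in RPD3 KO (1812 ± 53.8 and 1614 ± 28.8), and SSE2, SSA3 and SSA4 lay close together in RPD3 KO at 27.8 ± 1.45, 27.4 ± 0.0108 and 26.8 ± 3.28 TPM (SD, n = 3). The other neighbours in these 2 orders had no overlapping libraries, apart from SSA3 and SSA4 in SWI3 S237A. Summed over the 10 genes, the family had 11250 ± 436 TPM in wild type, 10294 ± 820 in RPD3 S418A, 6719 ± 138 in SWI3 S237A and 5769 ± 118 in RPD3 KO.

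RPD3 S418A showed no member past the test against wild type. SSA4 had 1281, 1492 and 1760 CPM and SSA2 8740, 7888 and 8007 in RPD3 S418A libraries 3, 11 and 19, within or near the wild type range. The groups overlapped for all 10 genes, and the share of all tested targets that overlapped was not computed. The log2 differences ran from -0.26 for SSA4 and SSB1 to 0.04 for SSA1, the smallest adjusted p in edgeR was 0.298, and 0 genes had an unadjusted p under 0.05 in edgeR or a call in DESeq2. The 95% intervals together spanned -0.60 to 0.25, so that changes as large as those of SSA4, SSA1, SSA2, SSE2 or KAR2 in the other mutants lay outside them. Wild type library 1 and RPD3 S418A library 3 were each the highest of their strain for SSB1, SSB2, SSZ1, SSE1 and KAR2, and without wild type library 1 the log2 difference of SSB1 was -0.04 and that of SSZ1 0.09.

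Set against RPD3 KO, RPD3 S418A was higher for 6 genes and lower for the 3 ribosome-associated ones, beside 72.7% of all targets called (39.4% higher and 33.3% lower). SSA3 did not pass (log2 0.14 ± 0.07, edgeR adjusted p = 0.0869). SSA4 was 25.8-fold higher and SSE1 1.25-fold higher, the latter not without RPD3 S418A library 3 (adjusted p = 0.0657) or with total counts as the scale (adjusted p = 0.163). SWI3 S237A against RPD3 S418A gave 3 higher and 6 lower, beside 65.8% of all targets (31.9% higher and 33.9% lower), and SSE1 did not pass (log2 -0.01 ± 0.10, adjusted p = 0.941).

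SWI3 S237A and RPD3 KO, the 2 strains with large changes, differed from each other in 7 of the 10 genes, beside 64.4% of all targets (32.3% higher and 32.1% lower). SSA2 (log2 0.96), SSA1 (0.39), KAR2 (0.37), SSE1 (0.31) and SSE2 (0.26) were higher in SWI3 S237A and SSA3 (-0.92) and SSA4 (-0.88) lower. SSA3 and SSA4 were thus lowest in SWI3 S237A, and SSA1 and SSA2 lowest in RPD3 KO. The calls of SSE1 (adjusted p = 0.0184) and SSE2 (adjusted p = 0.0185) in edgeR ended with total counts as the scale (adjusted p = 0.104 and 0.255), without library 2 of SWI3 S237A (0.101 and 0.0623) and without library 12 or 20 of RPD3 KO (0.0508 to 0.0560). That of SSE2 also ended without library 10 or 18 of SWI3 S237A (0.0611 and 0.0544).

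Partners of these chaperones were read in the same fits. Among 12 cytosolic J-domain genes, 4 were higher, 5 lower and 3 not called in each of RPD3 KO and SWI3 S237A, near the 69.9% and 60% of all tested targets called in these comparisons. SIS1, an essential J-domain partner of the SSA proteins, fell, with log2 changes of -4.23 ± 0.13 in RPD3 KO and -2.64 ± 0.12 in SWI3 S237A (edgeR adjusted p = 3.59e-11 and 1.66e-09). ZUO1, the partner of SSZ1 on the ribosome, rose by 0.30 ± 0.11 and 0.37 ± 0.11 (adjusted p = 0.0278 and 0.0118). The largest rise in the list was that of JJJ3, at 3.36 and 1.91, a gene picked out after its values were seen. The median log2 of the list was -0.28 in RPD3 KO and -0.17 in SWI3 S237A, beside -0.06 and -0.02 over all tested targets.

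Of 3 exchange factor genes outside the Hsp110 family, 2 were lower and 1 not called in RPD3 KO, and 2 were lower and 1 higher in SWI3 S237A, beside 69.9% and 60% of all targets called. FES1, an exchange factor of the cytosolic Hsp70s, fell, with log2 changes of -2.25 ± 0.31 and -2.61 ± 0.31 (edgeR adjusted p = 9.02e-05 and 5.51e-05), and SNL1 had log2 values of 0.18 ± 0.08 (adjusted p = 0.0621) and 0.25 ± 0.08 (adjusted p = 0.0159). The median log2 of these 3 was -0.21 and -0.25. Of 5 genes for Hsp90, its bridge to Hsp70 and the disaggregase, 4 were lower and 1 higher in both mutants, with medians of -3.28 and -2.74, beside 38% of all targets lower in RPD3 KO and 31.3% in SWI3 S237A. HSP104, the disaggregase that works with Hsp70, and HSC82, the constitutive Hsp90, both fell. Their log2 changes were -5.70 ± 0.09 and -4.28 ± 0.08 for HSP104 and -2.10 ± 0.10 and -0.96 ± 0.10 for HSC82. The gene that rose was CNS1 (1.88 and 1.02), picked out after its values were seen.

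Among 4 Hsp70 and Hsp110 genes of mitochondria and the endoplasmic reticulum, 1 was higher and 2 lower in RPD3 KO and 1 higher and 3 lower in SWI3 S237A, with medians of -0.11 and -0.37, beside 69.9% and 60% of all targets called. SSC1, the mitochondrial import Hsp70, fell, with log2 changes of -1.90 ± 0.07 and -1.37 ± 0.07 (edgeR adjusted p = 1.27e-10 and 3.54e-09). LHS1, the Hsp110-like partner of Kar2, had log2 values of 0.08 ± 0.08 (adjusted p = 0.366) and 0.22 ± 0.08 (adjusted p = 0.0306), in contrast to KAR2. Of 6 genes for J-domain partners of Kar2 and oxidative folding, 2 were higher and 3 lower in RPD3 KO and 1 higher and 2 lower in SWI3 S237A, with medians of -0.14 and -0.07, beside the same shares. ERO1, the oxidase of the endoplasmic reticulum, fell, with log2 changes of -1.99 ± 0.12 and -2.05 ± 0.12. PDI1, the disulfide isomerase, had -0.23 ± 0.08 and 0.23 ± 0.08 (edgeR adjusted p = 0.0193 and 0.0241), opposite in sign. In TPM, PDI1 stood at 683 ± 81.1 in wild type, 666 ± 25.4 in RPD3 KO and 866 ± 39.3 in SWI3 S237A (SD). Its RPD3 KO level thus lay within the wild type spread.

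Of 4 nascent chain factor genes, 1 was higher and 2 lower in RPD3 KO and 1 higher and 1 lower in SWI3 S237A, with medians of -0.10 and -0.02, beside 69.9% and 60% of all targets called. The higher gene in both was ZUO1, which was also counted among the cytosolic J-domain genes. EGD1 and EGD2, subunits of the nascent polypeptide-associated complex, had -0.25 ± 0.08 and -0.27 ± 0.09 in RPD3 KO (edgeR adjusted p = 0.0179 and 0.0148). In SWI3 S237A they had -0.29 ± 0.08 and -0.20 ± 0.09 (edgeR adjusted p = 0.0093 and 0.0687). These changes were negative where those of the SSB genes were positive. In TPM, EGD1 stood at 1097 ± 55.5 in wild type, 1059 ± 40.1 in RPD3 KO and 982 ± 18.9 in SWI3 S237A. EGD2 stood at 1388 ± 87.2, 1322 ± 40.9 and 1334 ± 66.8 TPM (SD, n = 3). Of these, only EGD1 in SWI3 S237A lay beyond the wild type spread. Among 5 transcription factor genes, 1 was higher and 2 lower in both mutants, with medians of -0.05 and -0.06, beside the same shares. HAC1, the factor of the unfolded protein response, fell, with log2 changes of -1.14 ± 0.13 and -1.08 ± 0.13, and SKN7 rose by 0.48 ± 0.09 and 0.54 ± 0.09. The transcript of HSF1, picked out after its values were seen, had 0.03 ± 0.06 and -0.06 ± 0.06 (adjusted p = 0.651 and 0.427), which says nothing of the activity of its protein. MSN4, also picked out afterwards, had log2 changes of -1.93 and -1.03. In RPD3 S418A it was the only gene of these 7 lists called (log2 0.43, edgeR adjusted p = 0.0245), beside 2.02% of all targets called there.

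Genes with the most similar pattern were ranked by Pearson's r of log2(TPM + 1) over the 12 libraries among 5341 targets outside the family, as a description of libraries that share 4 strains. Nearest to SSA4 were HCH1 (r = 0.998), GRE3 (0.996) and CPR6 (0.996), 2 of which are Hsp90 cochaperone genes. Nearest to SSA2 were SIS1 (0.997), the mitochondrial disaggregase gene HSP78 (0.995) and the glycogen synthase gene GSY1 (0.994). Nearest to KAR2 were the small heat shock gene HSP42 (0.999), STI1 (0.998) and TPO4 (0.997). Outside the family, SSB1 was nearest to the ribosomal protein gene RPS0A (0.994), ASP1 (0.993) and AKR2 (0.993). Within the family SSA4 was most like SSE2 (0.983) and KAR2 most like SSA1 (0.993), SSB1 was like SSZ1 (0.994) and SSB2 (0.992), and SSA3 was only loosely like SSA4 (0.612). SSB1 ran opposite to SSA4 (r = -0.919).

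Upstream motifs were counted in the 500 bases before the first coding base, on both strands, and set beside the same windows of 6000 genes. The 3-unit heat shock element, GAA, TTC and GAA with 2 free bases between units, was found before 4 members, SSA1 (3 matches), KAR2 (2), SSA2 (1) and SSE1 (1), and before 1.48% of all genes. Matches can overlap on opposite strands and are then not separate sites. This was so for SSA1 at -364 to -352 and -359 to -347, and for KAR2 at -205 to -193 and -200 to -188. The 2-unit forms GAANNTTC and TTCNNGAA, both of which are contained in every 3-unit match, were found before 4 and 7 members and before 19.2% and 21.2% of all genes. The stress response element AGGGG, bound by Msn2 and Msn4, was found before SSA4 (3), SSA1 (2) and SSE2 (1) and before 34.1% of genes. CAGNGTG, a core of the unfolded protein response element, was found before KAR2 and SSB2 and before 10.2% of genes. SSA3, SSB1 and SSZ1 held no exact match of any of these motifs. Of the 4 members with the 3-unit element, SSA1 fell 9.37-fold in RPD3 KO, SSA2 5.83-fold, KAR2 5.76-fold and SSE1 1.44-fold. SSA4 and SSE2, with falls of 30.9-fold and 10.2-fold, had exact matches only of the 2-unit form TTCNNGAA and the stress response element. The search took exact letters, so elements with a mismatch in a unit were not counted. TTCTAGAAgttcc before SSA4, TTCTAGAAcgtcc before SSE2 and gaatattacagaa before SSA3 each missed the 3-unit form by 1 base. How many of all genes hold such near matches was not counted. SSB2, which rose by a log2 of 0.47, held TTCNNGAA and CAGNGTG. Whether the motifs bear on these changes was not tested.

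**Figure D4:**
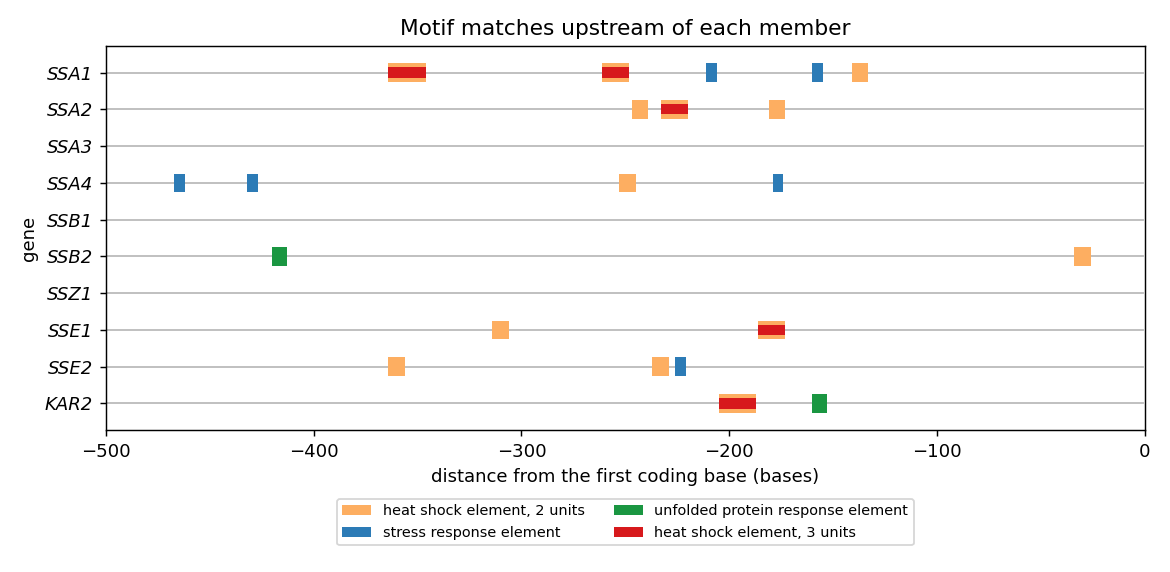
Matches of the heat shock, stress response and unfolded protein response elements in the 500 bases before the first coding base of each gene, by distance in bases. Only exact matches are drawn. SSA3, SSB1 and SSZ1 have none, and SSA1 has the most matches of the 3-unit heat shock element, with 3, some of which overlap each other.

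The authors' deposited table gave the same sign for all 10 genes in RPD3 KO and SWI3 S237A. It names no library, so the set of libraries behind it is not known and may differ from the 12 used here. The matching signs are not an independent check, as the same libraries can be among them. Its errors can also be larger, as for SSA4 in RPD3 KO, at 0.62 beside 0.15 in edgeR. In the authors' deposited table SSA4 had a log2 fold change of -4.90 in RPD3 KO and -5.81 in SWI3 S237A, SSA3 in RPD3 KO had -0.12 with an adjusted p of 0.567, and SSE1 in SWI3 S237A had -0.20 with an adjusted p of 0.282.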

How the data were processed

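Trimmomatic 0.36 and kallisto 0.44.0 were run by the authors on build R64, per the submitters' processing notes. The deposited file of each library holds an estimated count and a TPM for each of 6713 targets, with target lengths, per the file headers. The authors' deposited table for each mutant against wild type was made with DESeq2, per the same notes. It holds a mean signal, a log2 fold change with its error, a test score and p-values, per the file headers. All mapped columns could be used (0 unused).

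After rounding to whole numbers, the estimated counts were tested with edgeR 4.0.16 in R 4.3.3, as 1 robust quasi-likelihood fit of 12 libraries with TMM scaling, the default low-count filter and Benjamini-Hochberg adjustment over the 6327 targets kept, called under 0.05. The 6 comparisons between 4 strains were made, and the fit was tested on simulated data. Paralog ratios used log2(TPM + 0.1) and an exact two-sided permutation test. Sequences came from the RefSeq R64 genome, in which 6008 targets were found, 6003 of them with the same length. The default filter, TMM scaling and shared fit were compared with other settings and DESeq2 1.42.0.

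The 10 genes and the partner lists were chosen with earlier results of these data known, and p-values adjusted over a list alone are not given. Named partners are the 2 genes of each list with the highest mean TPM, and others are said to be picked out after their values were seen. Neighbours in pattern were the 3 targets with the highest r among tested genes outside the family with at most 5% shared 31-base words.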

Additional observations from a re-analysis of the deposited data

How the results depend on the processing

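The falls of SSA1, SSA2, SSA4, SSE2 and KAR2 and the rises of SSB1, SSB2 and SSZ1 in RPD3 KO and SWI3 S237A kept their direction and their call under RLE size factors, total counts, no filter, DESeq2, fits of 6 libraries and each left-out library, as did SSE1 in RPD3 KO and SSA3 in SWI3 S237A. Total counts shifted the median log2 change of all targets by 0.18 in RPD3 KO against wild type, -0.17 in RPD3 S418A against RPD3 KO and -0.13 in SWI3 S237A against RPD3 KO. The share of called targets that were higher moved there from 45.6% to 60.2%, 54.2% to 42.6% and 50.1% to 37.0%. Under total counts the log2 change turned to 0.010 for SSA3 in RPD3 KO against wild type, to -0.028 for SSA3 in RPD3 S418A against RPD3 KO, to -0.095 for SSB1 and -0.090 for SSZ1 in SWI3 S237A against RPD3 KO, and to 0.030 for SSE1 in SWI3 S237A against RPD3 S418A. The last was 0.022 with RLE size factors and 0.022 in DESeq2. None of these turned values was called. In the fit of the 6 libraries alone SSB2 passed between SWI3 S237A and RPD3 KO (log2 0.18, adjusted p = 0.0122). The partner genes were not followed under these other settings.

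The count of all targets called between RPD3 S418A and wild type, 128, was 314 in DESeq2 and 29 in the fit of those 6 libraries, and leaving out 1 library gave 60 to 272. Leaving out 1 library turned the sign of uncalled values within these ranges. Against wild type, RPD3 S418A gave -0.029 to 0.11 for SSA1, -0.081 to 0.036 for SSA3, -0.26 to 0.013 for SSB2, -0.29 to 0.093 for SSZ1 and -0.16 to 0.018 for KAR2. SSZ1 in SWI3 S237A against RPD3 KO gave -0.00035 to 0.053, and SSE1 in SWI3 S237A against RPD3 S418A -0.056 to 0.072. The log2 ratio difference of SSE2 over SSE1 in RPD3 S418A against wild type ran from -0.12 to 0.23, that of SSB2 over SSB1 in SWI3 S237A against wild type from -0.051 to 0.021, and that of SSA3 over SSA4 in SWI3 S237A against RPD3 KO from -0.13 to 0.046. The causes were not tested.

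The strains share no replicate number, but the library numbers run in 3 sets that each hold every strain (1 to 4, 9 to 12 and 17 to 20), which the labels do not call a batch. Libraries of 1 set correlated by -0.12 to 0.27 in their deviations from the strain means, and no comparison had all 3 pairs over 0.1. Of the 6 libraries of a comparison, 0 to 5 were most like their own set, with 5 in RPD3 KO against wild type. With 3 libraries a strain these values cannot exclude a pairing, and the main fit did not use the numbers. A fit with the set as replicate block, added after the data were seen, called 147 targets and 0 members between RPD3 S418A and wild type (smallest adjusted p of a member 0.218, SSE1), and called 4455 targets in RPD3 KO and 3867 in SWI3 S237A. It ended the call of SSA3 in RPD3 KO (log2 -0.17, adjusted p = 0.0681) and changed no other call of a member. Within the sets, SSA2, SSA4, SSB1, SSB2 and SSE1 were lower in RPD3 S418A than in wild type in 3 of 3, and no member was higher in all 3.

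With 3 libraries a strain, exact tests of ratios cannot go below 0.1, and groups of 3 are too small to test for outlying libraries. The split of reads within SSA1 and SSA2 and within SSB1 and SSB2 is an estimate. A p that missed the threshold does not show equal levels.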
